A study of Homo sapiens with 12 samples.

Results

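The proteasome is the protease that degrades ubiquitin-tagged proteins in the cytosol and nucleus. Its 20S core is a barrel whose outer rings hold the alpha subunits, which gate entry, and whose inner rings hold the beta subunits, of which PSMB5, PSMB6 and PSMB7 cut peptide bonds. The 19S regulatory particle sits on the ends of the barrel, binds and de-ubiquitinates substrates, and unfolds them with a ring of ATPases. In blood cells and in cells exposed to interferon, PSMB8, PSMB9 and PSMB10 can take the places of PSMB5, PSMB6 and PSMB7, which makes the immunoproteasome, and PSME1 and PSME2 form a cap that can replace the 19S particle. Peptides cut by this form are a source of ligands for MHC class I molecules.

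The transcripts of 41 proteasome genes were examined, out of 57353 rows of the count table. The members were taken by gene symbol, not by their values, though with earlier results of these data known. They comprise PSMA1 to PSMA7, PSMB1 to PSMB10, PSMC1 to PSMC6, PSMD1 to PSMD14 and PSME1 to PSME4. They were divided into 14 constitutive core genes, 17 regulatory particle genes and 5 immunoproteasome genes (PSMB8, PSMB9, PSMB10, PSME1 and PSME2). The other 5 were the 19S assembly chaperones PSMD5, PSMD9 and PSMD10 and the nuclear activators PSME3 and PSME4. All 41 passed the filter on low counts, which 12998 genes passed.

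RNA-seq was performed on MOLM-13, a human acute myeloid leukemia line that carries the internal tandem duplication of the receptor kinase FLT3 and is wild type by its label, so that every group has the same genotype. Cells received vehicle (DMSO) or 3 nM quizartinib, an inhibitor of FLT3, for 15 hr. Each treatment was given in RPMI, the regular medium, or in hBMSC-CM, a mix of equal parts of RPMI and of medium conditioned by the human bone marrow stromal line HS-5. The 4 groups held 3 replicates each, and the single cell line and the single stromal line limit them as a model. The study calls its replicates biological, and the labels do not say how the cultures were kept apart, so the p-values measure the spread between these samples.

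The 12 libraries held between 19966546 and 31546104 counts. All 9 markers of myeloid leukemia cells were measured, with a summed level of 1089 to 1130 CPM (counts scaled by library size and TMM factor to a common total) with vehicle in RPMI. That sum was 1841 to 1871 CPM with quizartinib in RPMI. In hBMSC-CM it was 1223 to 1250 CPM with vehicle and 2023 to 2158 CPM with quizartinib. The 9 did not move as a set. With quizartinib in RPMI 6 rose and 2, CD33 and MPO, fell (edgeR, adjusted p under 0.05). Of all genes tested 40.1% rose and 39.2% fell. In hBMSC-CM 5 rose and 1, MPO, fell, against 33.4% and 33.7% of all genes. Of 9 stromal markers only COL1A1 passed the filter, COL3A1, LUM, DCN and THY1 had no counts in the 12 libraries, and the summed level of the list lay between 0.401 and 5.76 CPM, highest with quizartinib in RPMI. Mitochondrially encoded genes took 0.458% to 1.10% of counts, and more with quizartinib than with vehicle in both media. The part of these features in the results was not tested.

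The sequence before the start of the genes was read for 5 short motifs. The 250 bases before the RefSeq start were at hand for 36 of the 41 genes, in GRCh38.p14, and 6 are printed 5′ to 3′ on the strand of the gene. PSME3, PSMD1 and PSMD11 are shown because they hold the largest decreases with quizartinib, and PSMB9, PSMB10 and PSME2 because they belong to the immunoproteasome and moved in different directions. Capitals mark matches on either strand to the interferon response element (GAAA, any pair of bases, GAAA), the E-box (CACGTG), the STAT site (TTCNNNGAA), the core of the antioxidant response element (TGACNNNGC) and the CCAAT box (CCAAT). No matches overlapped in the sequences printed, and a RefSeq start can lie inside the span that GENCODE gives a gene.
PSME3 (chr17:42833147-42833396, + strand): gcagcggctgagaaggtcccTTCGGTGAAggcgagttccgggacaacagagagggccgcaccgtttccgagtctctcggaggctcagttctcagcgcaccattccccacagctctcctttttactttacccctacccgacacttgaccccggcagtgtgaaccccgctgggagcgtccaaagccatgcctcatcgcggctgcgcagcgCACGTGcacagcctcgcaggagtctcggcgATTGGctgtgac
PSMD1 (chr2:231056617-231056866, + strand): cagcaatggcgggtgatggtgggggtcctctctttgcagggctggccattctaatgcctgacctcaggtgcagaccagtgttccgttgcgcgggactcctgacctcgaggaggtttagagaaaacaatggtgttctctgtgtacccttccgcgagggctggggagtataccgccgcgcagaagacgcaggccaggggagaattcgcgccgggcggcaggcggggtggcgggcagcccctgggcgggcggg
PSMD11 (chr17:32444260-32444509, + strand): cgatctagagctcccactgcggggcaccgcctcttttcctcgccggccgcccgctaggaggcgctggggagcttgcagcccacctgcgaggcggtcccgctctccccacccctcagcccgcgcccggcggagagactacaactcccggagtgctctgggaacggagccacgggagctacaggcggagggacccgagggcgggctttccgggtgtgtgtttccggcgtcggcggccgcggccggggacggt
PSMB9 (chr6:32853942-32854191, + strand): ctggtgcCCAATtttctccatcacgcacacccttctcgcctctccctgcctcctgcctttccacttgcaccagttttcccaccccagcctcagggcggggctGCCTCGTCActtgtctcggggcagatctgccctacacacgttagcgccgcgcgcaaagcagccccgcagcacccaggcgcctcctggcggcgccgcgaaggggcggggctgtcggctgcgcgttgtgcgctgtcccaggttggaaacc
PSMB10 (chr16:67936851-67937100, - strand): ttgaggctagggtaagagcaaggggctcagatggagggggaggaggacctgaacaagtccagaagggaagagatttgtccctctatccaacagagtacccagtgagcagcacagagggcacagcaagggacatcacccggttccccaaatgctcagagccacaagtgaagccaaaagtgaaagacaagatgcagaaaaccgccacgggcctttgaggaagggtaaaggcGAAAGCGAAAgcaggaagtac
PSME2 (chr14:24146611-24146860, - strand): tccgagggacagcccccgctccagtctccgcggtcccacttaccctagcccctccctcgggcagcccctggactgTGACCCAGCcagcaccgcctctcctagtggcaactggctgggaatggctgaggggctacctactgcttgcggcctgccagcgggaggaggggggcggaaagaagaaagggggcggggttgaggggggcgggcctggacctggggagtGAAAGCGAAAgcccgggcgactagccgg

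PSMB10 and PSME2 share the same 10 bases of the interferon response element, GAAAGCGAAA, beginning 21 and 28 bases before their starts. With every RefSeq start of a gene counted, the interferon element was found for 4 of the 36 member genes, the others being PSMA4 and PSMB4, and for 3.71% of the 27305 genes with such a window. The antioxidant core was found for 11 member genes (all genes 13.2%), the CCAAT box for 17 (37.0%), the STAT site for 6 (8.09%), and the E-box for 3, PSMB3, PSMD9 and PSME3 (7.73%). The windows of PSMD1 and PSMD11 held none of the 5 motifs. A match is a string of letters and not evidence of binding.

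The first question was how FLT3 inhibition changed the proteasome genes in regular medium. In RPMI, 32 of the 41 genes fell with quizartinib and 3 rose (edgeR quasi-likelihood test, Benjamini-Hochberg adjusted p under 0.05 over all genes tested). Decreases were called for 39.2% and increases for 40.1% of all genes tested, 79.3% in total, against 78.0% of the members lower and 7.32% higher. The median log2 fold change was −0.49 over the members and 0.02 over all genes tested, and the members ranged from −1.26 to 0.37. The groups did not overlap for 35 members (85.4%), against 81.1% of all genes. In such bulk libraries, fewer cells that express a gene and less of its RNA per cell cannot be told apart. All levels are relative to the other RNA of a library, so a change in total RNA per cell is not seen. The paper reports lower RNA yields from whole lysates with quizartinib, in other samples. The part of this in the changes was not tested.

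The 41 genes together took 0.499% ± 0.00470 (SD, n = 3) of all counts with vehicle in RPMI and 0.374% ± 0.00293 with quizartinib. In hBMSC-CM the same sum was 0.531% ± 0.00714 with vehicle and 0.446% ± 0.00522 with quizartinib. No quizartinib library reached the lowest vehicle library of its medium. The 14 core genes went from 0.156% to 0.120% in RPMI and the 17 regulatory particle genes from 0.264% to 0.183%. The 5 immunoproteasome genes stood at 0.0465% ± 0.000828 and 0.0456% ± 0.000794, a difference close to the SD.

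In RPMI 15 of the 17 regulatory particle genes fell, with a median log2 fold change of −0.62. Of the 11 non-ATPase subunits 10 fell (median −0.70), and of the 6 ATPases 5 fell (median −0.51). The exceptions were PSMD4, a ubiquitin receptor, and PSMC6, an ATPase.

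PSMD1, the large scaffold of the base of the 19S particle, had 263, 267 and 258 CPM in the 3 vehicle libraries in RPMI and 120.0, 119.8 and 113 CPM in the 3 quizartinib libraries. In hBMSC-CM it had 289, 307 and 287 CPM with vehicle and 188, 177 and 178 CPM with quizartinib. All quizartinib libraries were therefore below all vehicle libraries, and those in RPMI were the lowest. The log2 fold change was −1.16 (SE 0.0431, adjusted p = 5.37e-16) in RPMI, a decrease of 55.3%, and −0.70 (SE 0.0423, adjusted p = 9.14e-12) in hBMSC-CM.

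PSMD11, a subunit that clamps the lid to the core, had 134, 123 and 129.7 CPM with vehicle and 68.2, 63.5 and 65.6 CPM with quizartinib in RPMI. In hBMSC-CM the libraries held 139.7, 143 and 138 CPM with vehicle and 85.7, 86.2 and 87.0 CPM with quizartinib. The groups did not overlap in either medium, and the log2 fold changes were −0.97 (SE 0.0434, adjusted p = 1.21e-14) and −0.70 (SE 0.0427, adjusted p = 1.02e-11). PSMD14, the metalloprotease that removes ubiquitin chains from substrates, had 111, 117 and 117 CPM with vehicle and 63.4, 59.3 and 60.1 CPM with quizartinib in RPMI. In hBMSC-CM it had 113, 119.7 and 125 CPM with vehicle and 86.9, 83.5 and 78.7 CPM with quizartinib. It again separated treated from untreated libraries in both media (log2 fold changes −0.91 and −0.52).

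Among the ATPases, which unfold substrates and open the gate of the core, PSMC3 fell most in RPMI, from 209.6 ± 6.68 to 114 ± 2.7 CPM (SD, n = 3). In hBMSC-CM it went from 218 ± 6.59 to 137 ± 1.04 CPM. Its log2 fold changes were −0.88 and −0.67, both past the threshold. PSMC6 stood at 118, 123 and 114 CPM with vehicle and 119.8, 104 and 107 CPM with quizartinib in RPMI, so that the groups overlapped (log2 fold change −0.11, SE 0.0569, adjusted p = 0.0911).

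Of the 14 constitutive core genes 12 fell in RPMI with a smaller median change of −0.45, among them all 7 beta subunits, and the median was −0.47 over the alpha ring and −0.44 over the beta ring. PSMA7 and PSMA3 of the alpha ring had the largest changes of the core (log2 fold changes −0.78 and −0.77). PSMA2 and PSMA6 did not pass the test. Of the 7 beta subunits, PSMB4 (−0.15) lost its call with library size as the only scaling, with upper-quartile factors and without RPMI quizartinib replicate 1 (log2 fold changes −0.06, −0.04 and −0.12), and PSMB7 lost its call in 5 settings.

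The 3 catalytic beta subunits passed the test in RPMI with decreases of different size. PSMB5, with chymotrypsin-like activity and the main target of bortezomib, had 78.7, 75.1 and 74.9 CPM with vehicle and 47.6, 49.7 and 48.5 CPM with quizartinib in RPMI. In hBMSC-CM it had 82.2, 81.8 and 78.5 CPM with vehicle and 64.4, 65.0 and 63.8 CPM with quizartinib. Its groups did not overlap in either medium (log2 fold change −0.65, SE 0.0432, adjusted p = 1.06e-11 in RPMI).

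PSMB6, with caspase-like activity, had 114, 109 and 106 CPM with vehicle and 79.8, 84.0 and 83.5 CPM with quizartinib in RPMI, against 103, 109 and 106 CPM with vehicle and 104, 92.6 and 93.4 CPM with quizartinib in hBMSC-CM. The groups were apart in RPMI (log2 fold change −0.41, SE 0.0483, adjusted p = 9.41e-08) and overlapped in hBMSC-CM, where replicate 1 of the quizartinib group lay among the vehicle libraries. The call in hBMSC-CM (log2 fold change −0.13, SE 0.0482, adjusted p = 0.0192) was lost under 6 other settings, 3 of which left out a library. PSMB7, with trypsin-like activity, had 131, 130.1 and 121 CPM with vehicle and 116, 113 and 121 CPM with quizartinib in RPMI, where the groups overlapped. Its log2 fold change of −0.12 (adjusted p = 0.0138) became −0.03 with library size as the only scaling and −0.02 with upper-quartile factors, neither past the threshold. The call was also lost without RPMI quizartinib replicate 2 (−0.10), RPMI vehicle replicate 1 (−0.10) or RPMI vehicle replicate 2 (−0.11).

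**Figure D1:**
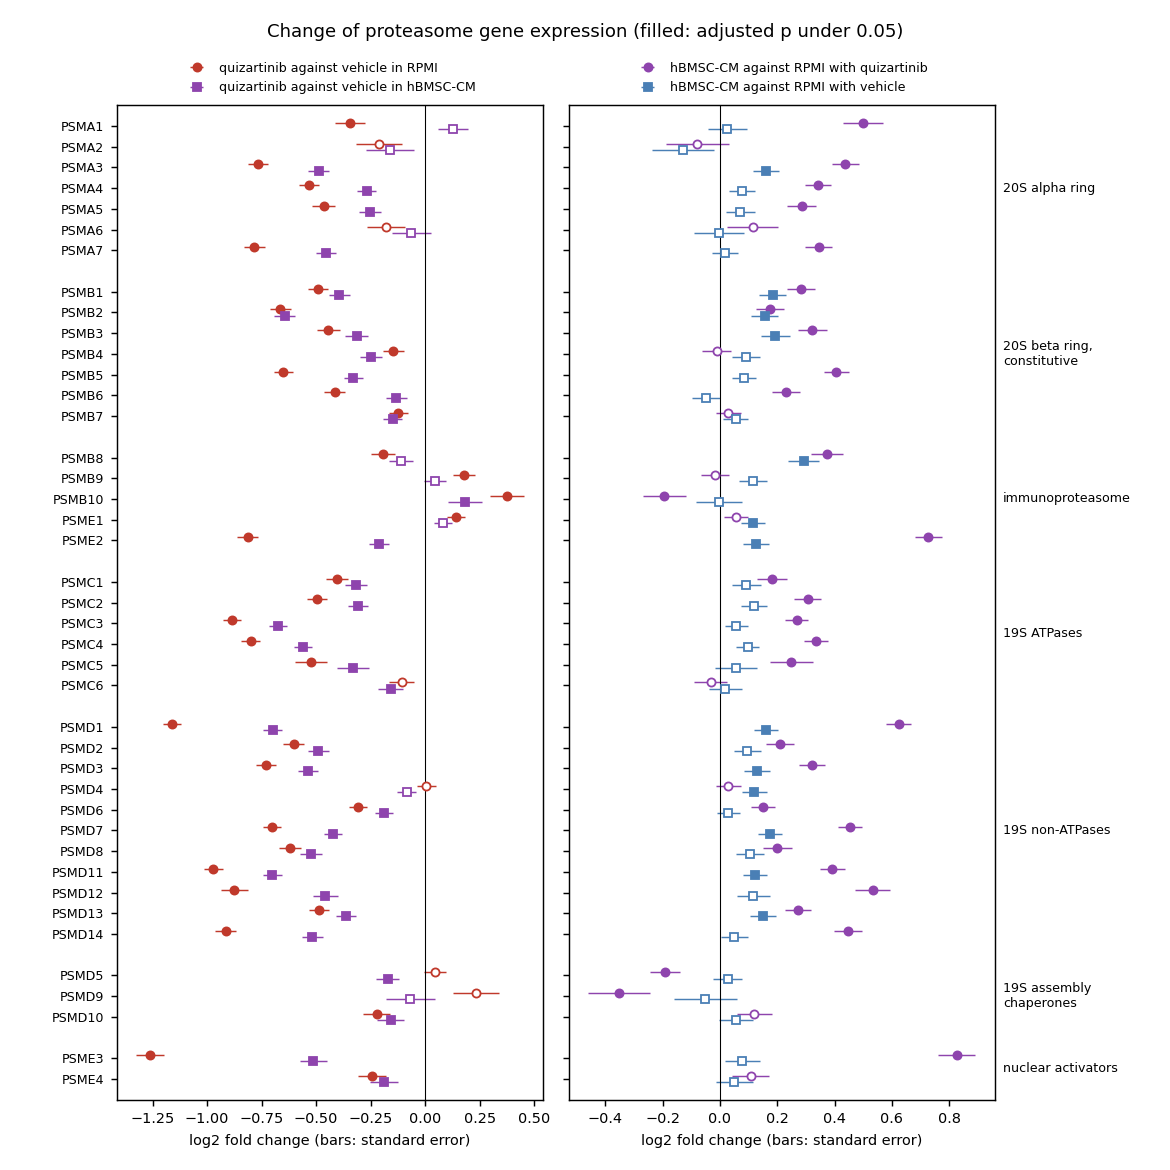
Log2 fold changes of the 41 genes from the edgeR fit, with bars for the standard error and filled symbols for an adjusted p under 0.05. The left panel gives quizartinib against vehicle in RPMI (circles) and hBMSC-CM (squares), where most genes lie left of 0, and the right panel gives hBMSC-CM against RPMI with quizartinib (circles) and with vehicle (squares).

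PSME3, which forms a nuclear cap that activates the 20S core without ubiquitin, had the largest decrease of all 41 genes in RPMI. It had 131, 124 and 131 CPM with vehicle and 54.6, 54.0 and 52.4 CPM with quizartinib, and in hBMSC-CM 145, 143 and 119 CPM with vehicle and 87.7, 100.3 and 97.9 CPM with quizartinib. The quizartinib libraries in RPMI were the lowest, and the vehicle libraries of both media were all above those of either quizartinib group. The log2 fold change was −1.26 (SE 0.064, adjusted p = 1.09e-13) in RPMI, a decrease of 58.2%, and −0.51 (SE 0.0617, adjusted p = 3.12e-07) in hBMSC-CM, a decrease of 29.9%. PSME4, the other nuclear activator, fell in RPMI (−0.24). Of the 3 assembly chaperones of the 19S base, PSMD10 fell in RPMI (−0.22) while PSMD5 (0.05) and PSMD9 (0.23) did not pass the test.

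The immunoproteasome genes did not move together. In RPMI 3 of the 5 rose (PSMB10, PSMB9 and PSME1) and 2 fell (PSME2 and PSMB8), with a median log2 fold change of 0.14. They include all of the members that rose. PSMB8 lies at chr6:32840717-32844679 and PSMB9 at chr6:32844136-32859851 (GRCh38), on opposite strands in the MHC class II region, which also holds TAP1 and TAP2.

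PSMB10, whose exons are partly shared with another gene in the annotation, had 22.1, 22.5 and 22.0 CPM with vehicle and 26.8, 28.1 and 31.8 CPM with quizartinib in RPMI, without overlap (log2 fold change 0.37, SE 0.0766, adjusted p = 0.000148). The hBMSC-CM libraries had 20.7, 21.9 and 24.2 CPM with vehicle and 26.8, 22.4 and 26.2 CPM with quizartinib. There the groups overlapped, since replicate 2 of the quizartinib group lay within the vehicle range, and the log2 fold change was 0.18 (SE 0.0786, adjusted p = 0.0453). That call was lost under 12 other settings, 8 of which left out a library. PSMB9 had 64.9, 61.1 and 60.5 CPM with vehicle and 68.9, 68.7 and 73.7 CPM with quizartinib in RPMI (log2 fold change 0.18, SE 0.0492, adjusted p = 0.00256), a small shift without overlap. In hBMSC-CM PSMB9 had 64.6, 69.5 and 68.4 CPM with vehicle and 66.6, 72.6 and 69.5 CPM with quizartinib, overlapping groups (log2 fold change 0.04, SE 0.0493, adjusted p = 0.442).

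PSME1 had 141, 141 and 139 CPM with vehicle and 153, 155 and 156 CPM with quizartinib in RPMI (log2 fold change 0.14, SE 0.0416, adjusted p = 0.004). This small change left no overlap between the groups. Without the filter on low counts, the log2 fold changes in RPMI were 0.07 for PSMB9 and 0.04 for PSME1, neither past the threshold (edgeR adjusted p = 0.336 and 0.575). PSMB8 had 145, 143 and 138 CPM with vehicle and 121, 122 and 129 CPM with quizartinib in RPMI (log2 fold change −0.19, SE 0.0553, adjusted p = 0.00308). The call on PSMB8 was lost with library size as the only scaling (−0.11) and with upper-quartile factors (−0.09).

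PSME2 moved in the opposite direction to PSME1, the other subunit of the same cap, whose gene lies close by on chromosome 14 (chr14:24136163-24138967 for PSME1 and chr14:24143362-24147570 for PSME2). It had 117, 112 and 109 CPM with vehicle and 62.1, 67.4 and 62.8 CPM with quizartinib in RPMI (log2 fold change −0.81, SE 0.0469, adjusted p = 9.59e-13, a decrease of 43.1%). With stromal medium the levels were 118, 122 and 129 CPM with vehicle and 104, 108 and 106 CPM with quizartinib (log2 fold change −0.21, SE 0.0456, adjusted p = 0.000379). The 3 quizartinib libraries in RPMI stood apart from the other 9. PSME2P2, a pseudogene of PSME2 with its own row, had 2.53% of the level of PSME2.

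**Figure D2:**
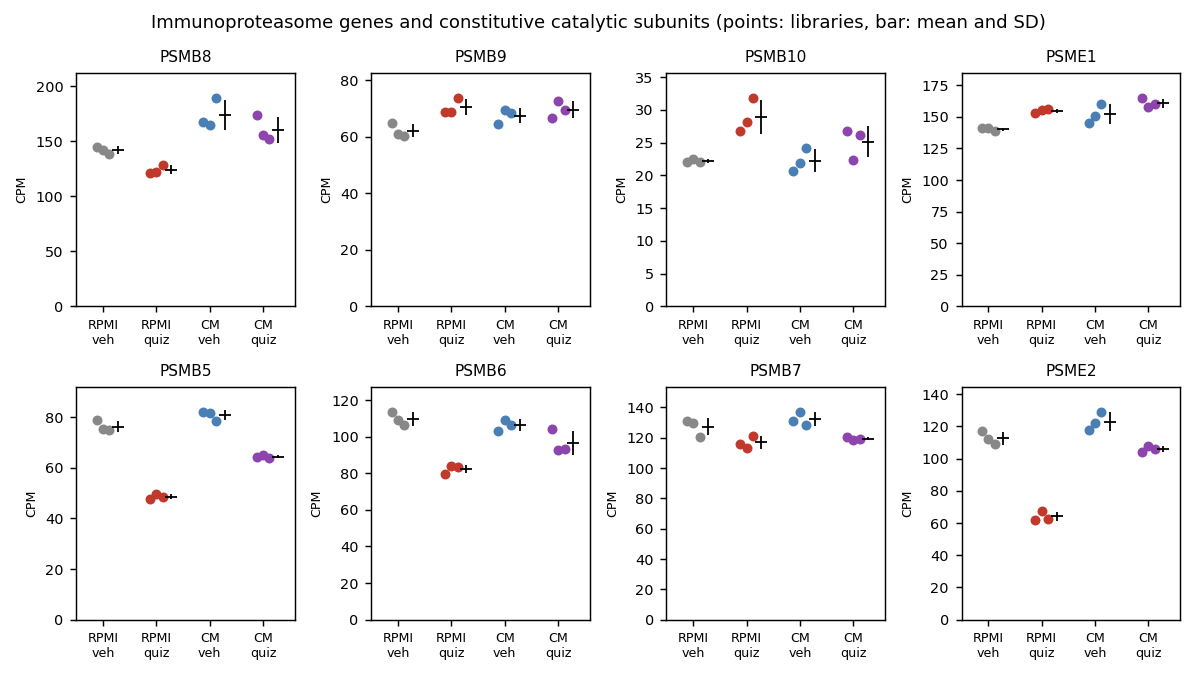
CPM of the 5 immunoproteasome genes and of the 3 constitutive catalytic subunits in each of the 12 libraries, with the mean and SD of each group beside the points. PSME2 and PSMB5 were lowest with quizartinib in RPMI, whereas PSMB10 was highest there.

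The counts of each immunoproteasome catalytic subunit were divided by those of the subunit it replaces in the same library, so that scaling between libraries cancels. These are ratios of counts, in which gene length does not cancel, and only their change between groups is compared. For PSMB8 to PSMB5 the ratio was 1.86 ± 0.0323 with vehicle and 2.55 ± 0.0978 with quizartinib in RPMI, against 2.15 ± 0.223 and 2.49 ± 0.179 in hBMSC-CM (SD, n = 3). For PSMB9 to PSMB6 it was 0.566 ± 0.00578 and 0.855 ± 0.0335 in RPMI, against 0.635 ± 0.00753 and 0.723 ± 0.0750 in hBMSC-CM. For PSMB10 to PSMB7 it was 0.175 ± 0.00698 and 0.247 ± 0.0154 in RPMI, and 0.169 ± 0.0173 and 0.211 ± 0.0186 in hBMSC-CM. All 3 ratios were higher with quizartinib in RPMI without overlap, whereas in hBMSC-CM the groups overlapped for PSMB8 to PSMB5 and for PSMB9 to PSMB6 and were apart for PSMB10 to PSMB7 by a narrow margin.

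Quizartinib raised the 3 ratios by 0.34, 0.39 and 0.41 on the log2 scale in the mean over both media (two-sided exact permutation test within each medium, p = 0.015, 0.01 and 0.005, each 0.03 after adjustment over the 6 tests). The smallest p this design allows is 0.005. The change was 0.46 in RPMI and 0.21 in hBMSC-CM for PSMB8 to PSMB5, 0.59 and 0.18 for PSMB9 to PSMB6, and 0.50 and 0.32 for PSMB10 to PSMB7. Whether the change differed between media was not tested. In the mean over both treatments the ratios differed between hBMSC-CM and RPMI by 0.09, −0.04 and −0.14, none past the threshold (exact permutation, adjusted p = 0.288, 0.68 and 0.0825). For PSMB10 to PSMB7 the difference passed without hBMSC-CM vehicle replicate 3 (exact permutation, adjusted p = 0.01). With the average of each replicate number subtracted first, the permutation gave an adjusted p of 0.0225. That p is not exact, since labels were not permuted within replicate numbers, and no conclusion is drawn from it. For PSMB8 to PSMB5 and PSMB9 to PSMB6 these means join values of opposite sign. They were 0.21 with vehicle and −0.04 with quizartinib for PSMB8 to PSMB5, and 0.17 and −0.25 for PSMB9 to PSMB6, where the groups did not overlap with either treatment. For PSMB10 to PSMB7 the values were −0.06 with vehicle and −0.23 with quizartinib. The difference within each treatment was not tested on its own. In RPMI PSMB5 fell further than PSMB8 (log2 fold changes −0.65 and −0.19), PSMB6 fell while PSMB9 rose (−0.41 and 0.18), and PSMB10 rose while PSMB7 fell (0.37 and −0.12).

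**Figure D3:**
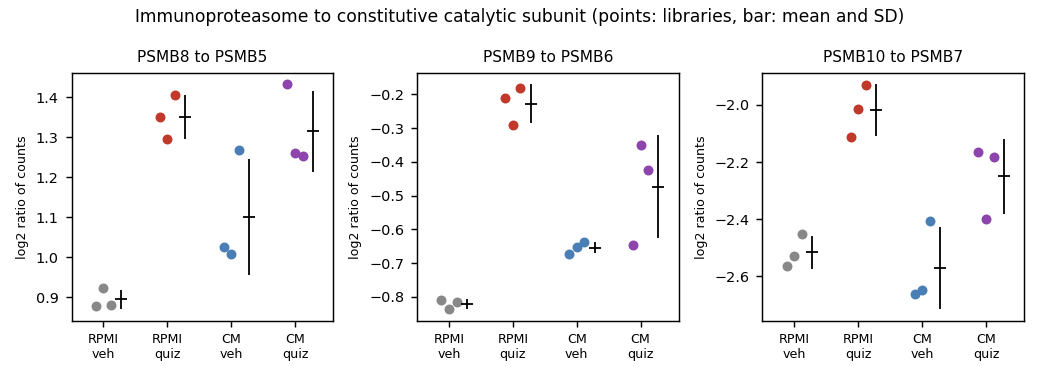
Log2 ratio of the counts of PSMB8 to PSMB5, PSMB9 to PSMB6 and PSMB10 to PSMB7 in each library, with the mean and SD of each group beside the points. In RPMI the 3 quizartinib libraries lie above the 3 vehicle libraries in every panel.

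In hBMSC-CM the response to quizartinib had the same direction and was smaller for many genes. Here 32 of the 41 genes fell and 1 rose (PSMB10), against 33.7% of all genes tested lower, 33.4% higher and 67.1% called in total. The median was −0.31 over the members and 0.01 over all genes, and the members ranged from −0.70 to 0.18. Groups without overlap were seen for 28 members (68.3%), against 68.4% of all genes. With library size as the only scaling 25 members fell and 4 rose, and the share of increases among all called genes went from 49.8% to 62.8%, as the median of all genes moved to 0.11. By class, 16 of 17 regulatory particle genes fell (median −0.46), 11 of 14 core genes fell (median −0.26), and among the immunoproteasome genes only PSME2 fell. Between the media, 30 genes were called lower with quizartinib in both. The share of all genes lower in both was not counted, and it cannot exceed 33.7%, the share lower in hBMSC-CM. Of the 30, PSMB4, PSMB6, PSMB7, PSMD6, PSMD10 and PSME4 lost a call in at least 1 other setting. PSMB10 was called higher in both, a call lost in hBMSC-CM under 12 other settings. No gene called in both moved in opposite directions. Without a call in both, the log2 fold changes in RPMI and hBMSC-CM differed in sign for PSMA1 (−0.34 and 0.13), PSMD4 (0.01 and −0.09), PSMD5 (0.05 and −0.17) and PSMD9 (0.23 and −0.07).

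An interaction term tested whether the medium altered the response to quizartinib. A positive value means that the log2 fold change in hBMSC-CM exceeded the one in RPMI. It was positive for 18 members and negative for 1, against 26.1% of all genes higher, 19.2% lower and 45.2% in total, with a median of 0.12 over the members and 0.01 over all genes. The 18 were 7 of 14 core genes, 9 of 17 regulatory particle genes, PSME2 and PSME3. The largest was that of PSME3, 0.75 (SE 0.0887, adjusted p = 6.14e-07), followed by PSME2, 0.60 (SE 0.0654, adjusted p = 1.77e-07), PSMA1, 0.47 (SE 0.0975, adjusted p = 0.000486), and PSMD1, 0.46 (SE 0.0601, adjusted p = 2.23e-06). Of the catalytic subunits, PSMB5 (0.32) and PSMB6 (0.28) passed the test and PSMB7 did not (−0.02).

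PSMA1, a subunit of the alpha ring whose exons are also partly shared, had 26.3, 27.3 and 27.5 CPM with vehicle and 22.2, 19.6 and 22.1 CPM with quizartinib in RPMI. In conditioned medium there were 25.5, 26.5 and 30.8 CPM with vehicle and 29.9, 29.8 and 30.5 CPM with quizartinib. It fell in RPMI (log2 fold change −0.34, SE 0.0699, adjusted p = 0.000138), while in hBMSC-CM the groups overlapped (log2 fold change 0.13, SE 0.068, adjusted p = 0.102). PSMD5, a chaperone that binds ATPases during assembly of the base, was the negative case. It had 65.8, 61.7 and 65.9 CPM with vehicle and 69.1, 63.0 and 67.8 CPM with quizartinib in RPMI, and 66.7, 68.4 and 61.8 CPM with vehicle and 57.6, 60.7 and 56.6 CPM with quizartinib in hBMSC-CM. The 3 quizartinib libraries in hBMSC-CM were lower than the other 9, and the interaction of −0.22 (SE 0.0729, adjusted p = 0.0188) was lost without replicate 2 of the RPMI vehicle or of the hBMSC-CM vehicle group, and without the filter on low counts.

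For PSMB2, a beta subunit without a catalytic site, the interaction did not pass the test. PSMB2 had 169, 155 and 165 CPM with vehicle and 101, 104 and 104 CPM with quizartinib in RPMI. The hBMSC-CM levels were 184, 190.2 and 170.5 CPM with vehicle and 116, 112 and 120.0 CPM with quizartinib. The log2 fold changes were −0.66 and −0.64, and the interaction was 0.02 (SE 0.0663, adjusted p = 0.842), with 2 SE either side reaching from −0.11 to 0.15.

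**Figure D4:**
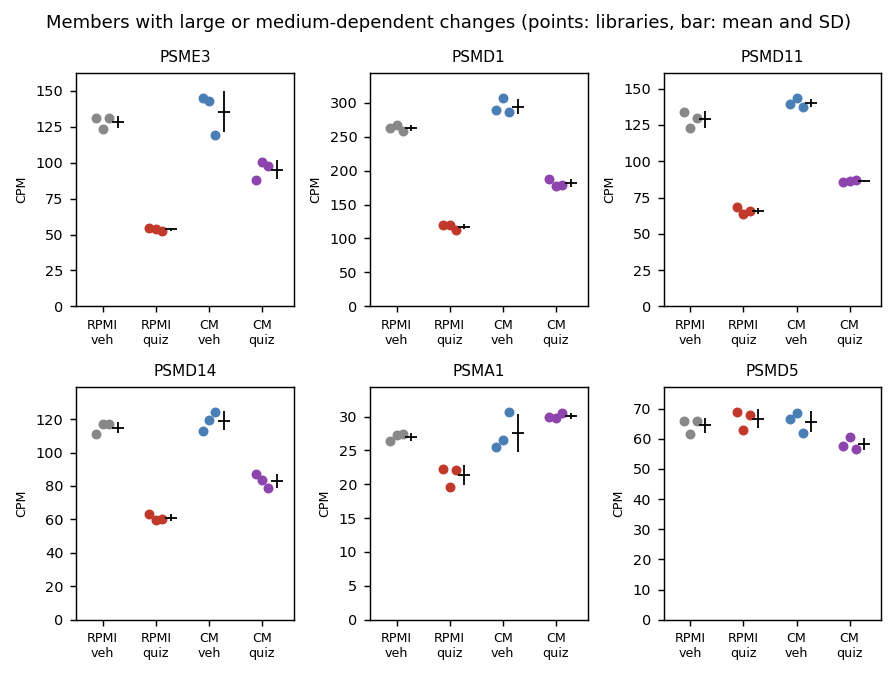
CPM in each of the 12 libraries for PSME3, PSMD1, PSMD11, PSMD14, PSMA1 and PSMD5, with the mean and SD of each group beside the points. PSME3, PSMD1, PSMD11 and PSMD14 were lowest with quizartinib in RPMI and intermediate with quizartinib in hBMSC-CM, whereas PSMD5 was lowest with quizartinib in hBMSC-CM.

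The third question was how stromal medium changed the genes under the same treatment. With quizartinib, 28 of the 41 genes had higher levels in hBMSC-CM and 3 had lower levels (PSMD9, PSMB10 and PSMD5), against 35.5% of all genes higher, 34.3% lower and 69.8% in total. The median was 0.27 over the members and 0.00 over all genes. Groups were apart for 33 members (80.5%), against 71.5% of all genes. Of the core 10 of 14 genes were higher (median 0.28), and of the regulatory particle 15 of 17 (median 0.27). Among the immunoproteasome genes PSME2 and PSMB8 were higher and PSMB10 lower. The 2 largest increases were those of PSME3 (log2 fold change 0.83, SE 0.0647, adjusted p = 3.61e-10) and PSME2 (log2 fold change 0.73, SE 0.0471, adjusted p = 1.59e-11).

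PSMD9, a chaperone of the ATPase ring, had the largest decrease in this comparison. It had 9.70, 8.31 and 9.47 CPM with quizartinib in RPMI and 7.60, 7.46 and 6.28 CPM with quizartinib in hBMSC-CM (log2 fold change −0.35, SE 0.108, adjusted p = 0.00681). The groups did not overlap, though the level is among the lowest of the members. PSMB10 was lower by 0.19 on the log2 scale, a call lost without replicate 2 of the hBMSC-CM quizartinib group, without replicate 3 of the RPMI quizartinib group, or without the filter on low counts.

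With vehicle fewer genes differed between the media. Stromal medium gave higher levels for 13 of the 41 genes and lower levels for none by the edgeR test (31.7%, against 32.1% of all genes called in total, 16.6% higher and 15.5% lower). The share of members called was thus near that of all genes, while those called all lay in 1 direction. The median was 0.09 over the members and 0.00 over all genes. The groups did not overlap for 18 members (43.9%), against 44.6% of all genes. The 13 fell to 6 without replicate 2 of the hBMSC-CM vehicle group, to 6 without replicate 2 of the RPMI vehicle group, to 7 without replicate 3 of the RPMI vehicle group, and to 8 with upper-quartile factors.

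PSMB8 had the largest difference between the media with vehicle. It had 145, 143 and 138 CPM in RPMI and 168, 165 and 189 CPM in hBMSC-CM, where replicate 3 was the highest (log2 fold change 0.29, SE 0.0548, adjusted p = 0.000365). With quizartinib in hBMSC-CM the libraries held 174, 156 and 152 CPM, also above all RPMI libraries. PSMB3, a beta subunit without a catalytic site, had 126, 119 and 124 CPM in RPMI and 137, 138 and 146 CPM in hBMSC-CM with vehicle (log2 fold change 0.19, SE 0.0508, adjusted p = 0.00597), and the groups did not overlap. By class, 4 of 14 core genes, 6 of 17 regulatory particle genes (none of the 6 ATPases) and 3 of 5 immunoproteasome genes were higher. Of all genes tested 16.6% were higher. Among the immunoproteasome genes the call on PSMB8 held in every setting run. Those on PSME1 and PSME2 were lost in 11 and 10 other settings. Of the regulatory particle genes, PSMD4 lost its call in 8 and PSMD11 in 7.

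Genes that act with the proteasome were taken from lists of its biology. Of all genes tested, 39.2% fell and 40.1% rose with quizartinib in RPMI, the background for the counts of these lists. Of 5 chaperones that assemble the 20S core, 4 fell with quizartinib in RPMI, with a median of −1.05, and PSMG2 did not pass the test (0.03). PSMG1, which pairs with PSMG2 to build the alpha ring, had 57.6, 62.6 and 56.9 CPM with vehicle and 22.3, 20.8 and 20.9 CPM with quizartinib in RPMI (log2 fold change −1.47, SE 0.0592, adjusted p = 2.17e-15). In hBMSC-CM PSMG1 had 70.9, 77.4 and 77.1 CPM with vehicle and 42.7, 46.6 and 45.4 CPM with quizartinib (log2 fold change −0.74, SE 0.0547, adjusted p = 2.04e-10), a smaller decrease. The interaction was positive for 4 of the 5 (median 0.72), against 26.1% of all genes. POMP, the maturation factor of the core, had 109, 109 and 99.7 CPM with vehicle and 54.1, 53.9 and 51.5 CPM with quizartinib in RPMI, a decrease of 49.9% (SE 0.0481 on the log2 scale, edgeR adjusted p = 4.53e-14).

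Of 9 other 19S subunits and partners, 6 fell and 1 rose in RPMI, against 39.2% and 40.1% of all genes. The de-ubiquitinase UCHL5 fell by 1.33, its receptor on the particle ADRM1 by 0.86, and the de-ubiquitinase USP14 by 0.80 on the log2 scale. Of 11 genes for ubiquitin and its shuttle factors, 7 fell and 3 rose, against the same shares of all genes. The shuttle factor UBQLN4 fell by 1.08 on the log2 scale.

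Of 10 genes for proteasome transcription and import into the nucleus, 4 fell and 3 rose in RPMI. These counts are near the background, since 39.2% of all genes fell and 40.1% rose. NFE2L1, the transcription factor that raises proteasome genes when the proteasome is inhibited, had 182, 177 and 178 CPM with vehicle and 146, 155 and 154 CPM with quizartinib in RPMI. In stromal medium it stood at 189, 188 and 176 CPM with vehicle and 138, 137 and 145 CPM with quizartinib. Its log2 fold change was −0.24 (SE 0.0422, adjusted p = 2.67e-05) in RPMI and −0.40 (SE 0.0425, adjusted p = 5.01e-08) in hBMSC-CM, with a negative interaction of −0.16 (SE 0.0599, adjusted p = 0.0336), a sign opposite to that of the 18 members above. NFE2L2, the factor of the oxidative stress response, rose in RPMI (0.38).

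Of 10 regulators of the immunoproteasome and genes of peptide loading, 5 rose and 5 fell in RPMI, against 40.1% and 39.2% of all genes. IRF1, an interferon-induced factor that binds the promoters of immunoproteasome genes, had 52.7, 52.8 and 53.0 CPM with vehicle and 68.7, 75.7 and 72.4 CPM with quizartinib in RPMI. The counterparts in hBMSC-CM were 53.3, 50.7 and 50.2 CPM with vehicle and 49.3, 49.7 and 50.2 CPM with quizartinib. The RPMI quizartinib libraries were above the other 9, and the log2 fold change was 0.45 (SE 0.0464, adjusted p = 1.32e-08) in RPMI and −0.05 (SE 0.048, adjusted p = 0.378) in hBMSC-CM. TAP1, a subunit of the peptide transporter, had 67.8, 68.8 and 69.2 CPM with vehicle and 98.8, 100.1 and 107 CPM with quizartinib in RPMI (log2 fold change 0.57, SE 0.0441, adjusted p = 1.33e-10), while TAP2 fell by 0.67. PSMA8 and PSMB11, subunits restricted to testis and thymus, were too low to be tested.

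Levels can be compared between genes only per length. With vehicle in RPMI the median level of the constitutive beta ring was 133 CPM per kb of the canonical transcript (range 36.8 to 218), that of the immunoproteasome genes 126 (22.7 to 145) and that of the alpha ring 28.8 (4.52 to 130). The ATPases had a median of 62.2 CPM per kb, the non-ATPases 79.1, the assembly chaperones 19.1 and the nuclear activators 27.4. Subunits of the same ring thus differed widely in CPM per kb. The length is that of the whole canonical transcript, also for PSMA1, PSMA2 and PSMA6 of the alpha ring, whose exons are shared with other genes. The part of this in the differences was not tested.

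The members lowest in CPM, which is not corrected for length, were genes whose exons are shared in the annotation. In GENCODE (GRCh38), other genes on the same strand cover 100% of the canonical transcript of PSMA2, 81.4% of PSMA6, 67.0% of PSMA1, 56.1% of PSMB10 and 28.8% of PSMD9. These 5 genes had the lowest mean levels of the 41 over all libraries, at 5.82, 13.4, 26.5, 24.6 and 7.90 CPM. The next lowest was PSMD10 at 34.5 CPM, with no such overlap. Per kb the order was different. With vehicle in RPMI, PSME4 (14.3 CPM per kb), PSMD5 (19.1) and PSMD12 (19.9) had no such overlap. They were nevertheless below PSMA1 (22.6) and PSMB10 (22.7). STAR leaves out reads that lie on exons of more than 1 gene, and the part of this in the levels was not tested. The overlap was read from GENCODE 44, while the authors counted with a different release, from Ensembl. Whether that release holds the overlapping genes was not checked. On the opposite strand NRDE2 covers 76.1% of the exons of PSMC1, and the strand setting of the counts is not given in the sources used here. Rows for 32 pseudogenes of 12 members were in the table, and 4 had over 1% of the level of their member, led by PSMA6P1 (18.0%) and PSMC1P1 (17.5%).

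**Figure D5:**
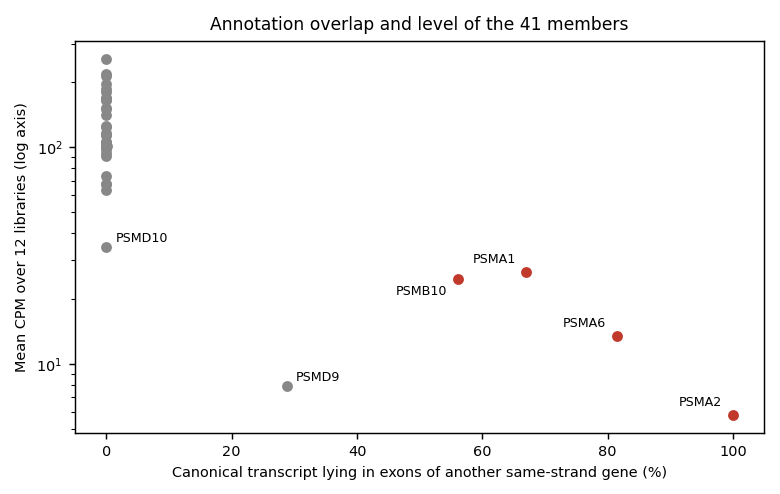
Mean CPM over the 12 libraries (log axis) against the percent of the canonical transcript that lies in exons of another gene on the same strand, 1 point for each of the 41 genes, with red for the 4 genes above 50%. PSMA2, PSMA6, PSMA1, PSMB10 and PSMD9 have both overlap and the lowest levels in CPM, which is not corrected for length.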

How the data were processed

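Poly-A selected RNA of MOLM-13 cells was sequenced as read pairs in 12 libraries. The authors trimmed reads with BBDuk, aligned them to human Ensembl hg38 with STAR 2.6.0a, summed identifiers under one gene name, and deposited raw counts per gene without normalization. The strand setting of the counting is not given in the sources used here.

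Genes had to reach 1 in mean raw count and 1 in mean CPM, which left 12998 of 30572 rows with a count and between 99.7% and 99.8% of counts. No row named no gene. One edgeR 4.0.16 quasi-likelihood fit (R 4.3.3) with TMM scaling and 4 group means held all 12 libraries, with 8 residual degrees of freedom, and gave 5 contrasts. Tests were two-sided, with Benjamini-Hochberg adjustment over all genes tested and a threshold of 0.05. The SE is the log2 fold change divided by the square root of F. Ratios of counts were compared by exact stratified permutation (400 permutations), adjusted over 6 tests. Levels are TMM-scaled CPM, and a floor of 3 counts was 0.0951 to 0.150 CPM. Replicates of a group differed by more than counting noise in all 12 pairs (chi-square per gene of 2.66 to 10.5).

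Named genes are the 2 largest called changes of each direction in each contrast, the immunoproteasome genes with their constitutive counterparts, and examples of each class, some of which were added after their values were seen. The members and lists were chosen with earlier results of these data known. Promoters were taken from RefSeq (GRCh38.p14) and positions from GENCODE 44. Other settings were DESeq2 1.42.0 (size factors and Wald test), limma-voom (limma 3.58.1), library size only, upper-quartile factors, no filter, the replicate block, fewer groups and each library left out. On simulated counts for quizartinib against vehicle in RPMI (12951 genes), the test called 96 of 100 genes changed by a log2 of 1 and 84 of 100 changed by 0.5, and 16 unchanged genes. Only those genes were changed, in equal numbers up and down, whereas 79.3% of genes were called in the data. The simulation therefore cannot give the error rate or the effect of scaling in the data.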

Additional observations from a re-analysis of the deposited data

Results flagged for a closer look

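For 19 members the response to quizartinib differed between RPMI and hBMSC-CM, as tested by the interaction in the edgeR fit (adjusted p under 0.05), and these values are given here without an explanation. Of all genes tested 45.2% passed the same test, so the share among the 41 members is near the background. The interaction on the log2 scale was 0.75 for PSME3, 0.60 for PSME2, 0.47 for PSMA1, 0.46 for PSMD1, 0.42 for PSMD12 and 0.40 for PSMD14. It was 0.33 for PSMA7, 0.32 for PSMB5, 0.28 for PSMB6, PSMD7 and PSMA3, 0.27 for PSMD11, 0.26 for PSMA4 and 0.24 for PSMC4. It was 0.21 for PSMA5 and PSMC3 and 0.19 for PSMD3 and PSMC2. PSMD5 was the only negative value, at −0.22. The interactions of PSMA5, PSMC2, PSMD3 and PSMD5 lost their call in at least 1 other setting.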

How the results depend on the processing

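Of the 131 calls on members over the 5 contrasts, 103 held in every setting run and 28 were lost in at least 1. The members that rose with quizartinib in RPMI numbered 3, and 6 with library size only or upper-quartile factors and 1 without the filter. In hBMSC-CM the 1 that rose became 4 with library size only or upper-quartile factors and 0 with DESeq2 size factors, without the filter, with the DESeq2 Wald test or with only the groups compared, and 0 to 3 when a library was left out (3 without hBMSC-CM vehicle replicate 3). Those scalings moved the median of all genes to 0.11 and 0.13 in RPMI and to 0.11 and 0.09 in hBMSC-CM, so that decreases are relative to that shift. The members lower in hBMSC-CM with quizartinib numbered 3, and 1 without the filter. The members higher in hBMSC-CM with vehicle, which are all those changed, numbered 13, 8 with upper-quartile factors and 6 to 14 when a library was left out. The 1 member with a negative interaction became 0 without the filter and 0 to 1 when a library was left out.

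Differences that were never called changed sign near 0. PSMB7 in hBMSC-CM against RPMI with quizartinib was −0.016 with upper-quartile factors, and PSMB9 was 0.060 without the filter and −0.042 to 0.019 with a library left out. PSMB10 with vehicle was 0.00029 with DESeq2 size factors, 0.0026 without the filter, 0.0019 with the DESeq2 Wald test, and −0.068 to 0.055 with a library left out. Without the filter the interaction was 0.047 for PSMB7 and 0.012 for PSME1, and for PSMB7 it was −0.050 to 0.010 with a library left out. The medium effect on PSMB9 to PSMB6 was −0.070 to 0.0034 with a library left out.

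The replicate numbers did not pair the libraries, since same-numbered libraries had correlations of −0.265 to 0.119 (median −0.0321, 18 pairs) and 0 of 12 correlated best with their own number. The replicate block left 10 members changed between media with vehicle in place of 13. With the average of each replicate number subtracted, the medium effect on PSMB10 to PSMB7 stayed at −0.14 (permutation, adjusted p = 0.0225). That p is not exact, since labels were not permuted within replicate numbers. The effect was −0.19 to −0.11 with a library left out, past the threshold without hBMSC-CM vehicle replicate 3. The summed share was 0.504% and 0.379% (vehicle and quizartinib in RPMI) of tested genes without mitochondrial genes. Without the immunoproteasome members it was 0.452%, 0.328%, 0.479% and 0.392% in RPMI with vehicle and quizartinib and hBMSC-CM with vehicle and quizartinib. The cause of these changes was not tested.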

Other observations

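Within the hBMSC-CM vehicle group, replicate 3 had the highest level of 4 immunoproteasome genes. It had 189 CPM of PSMB8 against 168 and 165 CPM in replicates 1 and 2, and 24.2 CPM of PSMB10 against 20.7 and 21.9 CPM. PSME1 stood at 160.5 CPM against 145 and 151 CPM, and PSME2 at 129 CPM against 118 and 122 CPM. PSMB9 did not follow, at 68.4 CPM against 64.6 and 69.5 CPM. The trait was not particular to these genes, since the constitutive core genes together were also highest there (0.169% of counts against 0.161% and 0.165%). The regulatory particle genes together were not (0.280% against 0.276% and 0.285%). The same library had the lowest PSME3 of its group, 119 CPM against 145 and 143 CPM. Other members were lowest there too, among them PSMC5 (112 CPM against 141 and 145 CPM) and PSMD12 (84.3 CPM against 95.4 and 102 CPM). These levels were noticed after the values were seen and were not tested.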
